A study of Arabidopsis thaliana with 9 samples.

Results

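The gun4-1 mutant of Arabidopsis was compared with its untreated wild-type Col-0 on ATH1 arrays, which measure transcript levels of most genes with a probe set each. Members of the comparison were the 3 arrays labelled gun4-1 and the 3 labelled wild-type Col-0, 6 of the 9 arrays of the series, and all probe sets except the Affymetrix controls, which left 22746 of 22810. The gun4-1 line is in the Col-0 background, and neither group received an agent. Seedlings of both were kept on solid medium with sucrose in darkness for 3 days and then given 6 h of light. RNA was taken from whole seedlings. The remaining 3 arrays held Col-0 seedlings whose medium contained gabaculine at 10 µM (GAB). They entered the fit and served as a second condition. GAB inhibits the aminotransferase that forms 5-aminolevulinic acid (ALA), the precursor of all tetrapyrroles.

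GUN4 is a chloroplast protein that binds porphyrins and stimulates Mg chelatase, the enzyme that directs protoporphyrin into chlorophyll synthesis. The gun mutants were found because they keep nuclear photosynthesis genes active when chloroplast development is blocked. The gun4-1 allele carries a point mutation. Light reaching an etiolated seedling starts chlorophyll synthesis, opens the cotyledons and slows hypocotyl elongation, so genes of the wall, of growth and of reserve use change at this stage. The comparison asks which transcripts differ between mutant and wild-type 6 h into this transition. GUN4 itself is not among the genes named in the annotation used and was not analysed here, so the labels could not be checked on the mutated gene.

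Each value is a log2 signal from robust multi-array average (RMA). Array medians were 6.50, 6.57 and 6.55 in Col-0 and 6.41, 6.48 and 6.44 in gun4-1, so every mutant array had a lower median. Pairs of arrays of one group correlated across probe sets with r of 0.996 to 0.997, and arrays of the different groups with 0.984 to 0.988. Replicate arrays of Col-0 had a median SD of 0.0969, those of gun4-1 of 0.113. For actin control probe sets the 3′ minus 5′ difference, a sign of RNA integrity, was 2.60 to 2.91 in Col-0 and 2.55 to 2.69 in gun4-1, and for GAPDH 0.333 to 0.529 and 0.485 to 0.515; the ranges overlapped. Of 36 marker genes of seedling cell types 5 are named on the arrays, and none was called: the root-hair expansins EXPA7 and EXPA18, the stomatal regulator FAMA, the mesophyll Rubisco activase RCA and the meristem peptide CLV3 lay between -0.33 and 0.56 on the log2 scale. EXPA7, at 0.56, was called after quantile normalization (0.66, adjusted p = 0.0208), with centred arrays (0.66, adjusted p = 0.0203) and without gun4-1 replicate 1 (0.71, adjusted p = 0.0292). In whole seedlings a lower level in each cell and fewer cells of a type cannot be told apart.

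A probe set was called when its Benjamini-Yekutieli adjusted p from limma was at most 0.05 and its fold change was above 1.5 or below 0.667. This held for 1570 probe sets, 6.90% of those tested. Of them 1014 were lower in gun4-1 (4.46%) and 556 were higher (2.44%), so 64.6% were lower. When array medians were set equal, the lower calls numbered 768 and the higher ones 859, and the lower share was 47.2%. That centring moved the median log2 fold change of all probe sets from 0.02 to 0.12, and no called gene named here changed direction under it. The lower group had a median fold change of 0.554 and the higher group one of 1.74, and 345 and 167 of them differed by more than 2-fold. Beyond 8-fold lay 8 lower and 3 higher probe sets, and the annotation used here gives none of these 3 a single gene, so they are not in the rankings of named genes below. On all 1570 the gun4-1 arrays lay beyond all Col-0 arrays, which the limits favour. Such separation held for 36.0% of all probe sets tested. Mean signals under log2 5 were counted as dim. Of the lower calls 184 had a dim mean in gun4-1, and of the higher calls 51 had one in Col-0. A dim mean in gun4-1 was found for 34.8% of all probe sets tested. Without the probe sets dim in both groups 1553 were called.

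Only some calls can be given a gene. Of the called probe sets 815 have 1 gene (533 lower, 282 higher), 719 are unnamed here and the rest match several genes. Among the 13513 probe sets with 1 gene, 6.03% were called, and among the 1580 whose gene has a symbol 8.92%. Genes without a symbol are given by their locus, whose first digit is the chromosome. The gene lists below hold only probe sets with 1 named gene, so each covers only a part of its family. A gene called measured below is one named in this way. Of the 736 probe sets in any list 10.2% were called, against 6.90% of all those tested.

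**Figure D1:**
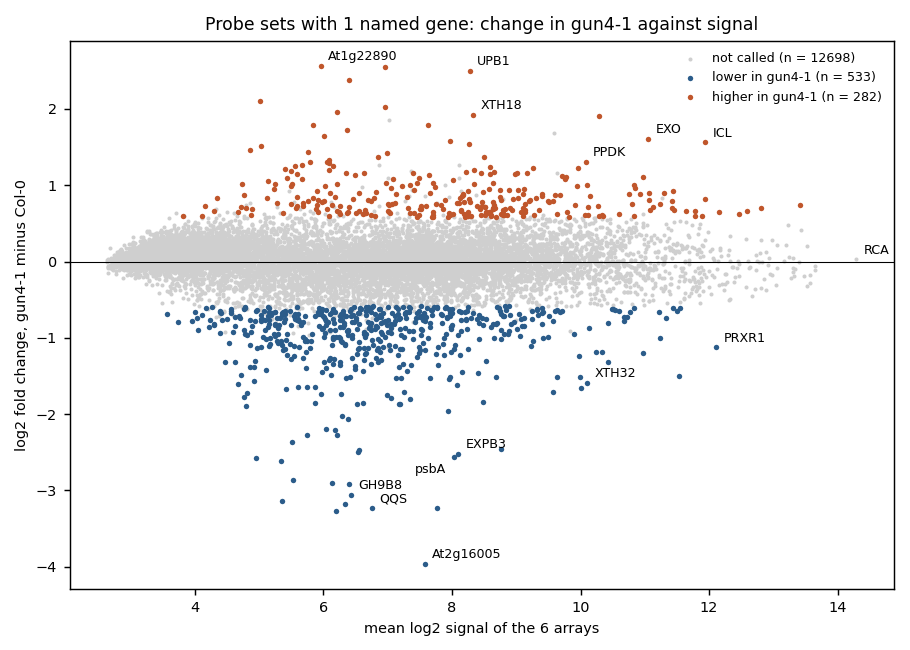
Log2 fold change (gun4-1 minus Col-0, vertical axis) against the mean log2 signal of the 6 arrays (horizontal axis) for the 13513 probe sets with 1 named gene. Blue points (533) were called lower and orange points (282) higher; decreases reach -3.96 and increases 2.57, while RCA, the brightest point, lies at 0.03.

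The 12 deepest decreases among named genes left 0.0642 to 0.168 of the wild-type level. The log2 signal of At2g16005 was 9.42, 9.64 and 9.62 in Col-0 and 5.62, 5.50 and 5.68 in gun4-1, a fold change of 0.0642 (log2 -3.96, standard error 0.14, adjusted p = 7.7e-08 from limma). QQS, a gene known only from Arabidopsis whose product influences starch content, gave 8.36, 8.29 and 8.45 against 5.08, 5.06 and 5.27. Its groups were far apart with little spread in either (log2 -3.23, standard error 0.08, adjusted p = 7.0e-09). For GH9B8, of the endo-glucanase family GH9 that cuts wall glucans, the signals were 7.92, 8.10 and 7.86 in Col-0 and 4.71, 5.09 and 4.90 in the mutant, a fold change of 0.120.

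At5g38020 and At5g38030 are neighbours on chromosome 5 and were both among the 12 deepest decreases. The Col-0 arrays gave 7.68, 8.20 and 7.90 for At5g38020 and 6.93, 6.99 and 6.94 for At5g38030. In gun4-1 the signals were 4.53, 4.69 and 5.02 for the first and 3.90, 4.19 and 4.18 for the second, which are fold changes of 0.110 and 0.137. Both genes were therefore low on all 3 mutant arrays and on none of the wild-type ones. At1g26250, described in the study as an extensin-like proline-rich protein, varied most among replicates: 7.55, 8.07 and 7.15 in Col-0 and 4.62, 5.05 and 4.39 in gun4-1 (log2 -2.90, standard error 0.21, adjusted p = 2.7e-05). The study's quantitative real-time PCR at 6 h also found it lower in gun4-1, but by much less. The other members of this set were At4g29200, At4g17470, At1g21520, At5g62210, At2g12050 and At3g47320, with log2 fold changes from -3.27 to -2.58. The probe set of At2g12050 is of a type that can match related transcripts. At3g47320 had nearly the same signal, 3.66 to 3.67, on the mutant arrays. Each of the 12 kept its call when any single array was left out.

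**Figure D2:**
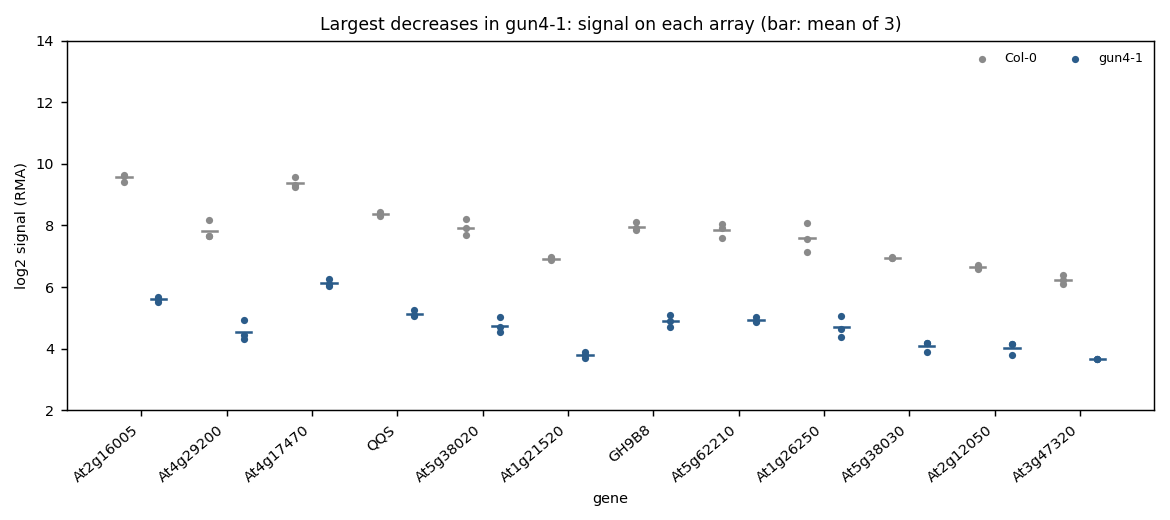
Log2 signal (vertical axis) on each of 3 Col-0 arrays (grey) and 3 gun4-1 arrays (blue) for the 12 genes with the largest decreases among probe sets with 1 named gene, with the mean of each group as a bar. The choice of genes required separate groups. Group means run from 9.56 against 5.60 for At2g16005 to 6.24 against 3.66 for At3g47320.

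Among probe sets with 1 named gene, the largest increases were smaller than the largest decreases and reached 5.93-fold. At1g22890, an unknown protein, had signals of 4.83, 4.60 and 4.61 in Col-0 and of 7.14, 7.18 and 7.42 in gun4-1 (log2 2.57, standard error 0.10, adjusted p = 1.7e-07 from limma). The study's quantitative real-time PCR at 6 h also found it higher in gun4-1, but by much less. At1g78720 went from 5.70, 5.49 and 5.84 to 8.08, 8.43 and 8.16, a 5.84-fold increase. UPB1 encodes UPBEAT1, a bHLH transcription factor that represses peroxidase genes in the root and sets where cells stop dividing. Its Col-0 signals were almost equal, 7.01, 7.05 and 7.04, whereas the mutant arrays spread over 10.02, 9.60 and 8.98 (5.67-fold, log2 2.50, standard error 0.19, adjusted p = 3.7e-05).

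Replicate spread was widest for the defensin gene PDF1.4 among these increases. PDF1.4 had 4.74, 6.07 and 4.81 in Col-0, so that replicate 2 stood apart, and 7.20, 7.74 and 7.83 in gun4-1 (5.22-fold, log2 2.38, standard error 0.28, adjusted p = 0.00096). Without Col-0 replicate 2 its log2 fold change was 2.82. XTH18, a xyloglucan transferase that cuts and rejoins wall polymers, rose 3.80-fold from 7.29, 7.34 and 7.46 to 9.37, 9.34 and 9.16. At1g05340 rose 3.77-fold at a high signal, from 9.26, 9.49 and 9.24 to 11.40, 11.35 and 10.99. The remaining genes of the 12 largest increases were At3g62950, At1g49570, At1g15010, At4g25580, At5g43450 (a putative 2-oxoglutarate-dependent dioxygenase) and At3g22060 (related to receptor kinases), with 3.32-fold to 4.30-fold increases. For At1g49570 the mutant replicates were uneven, 7.24, 8.55 and 8.14 against 6.07, 5.97 and 5.82. All 12 kept their call when any single array was left out.

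**Figure D3:**
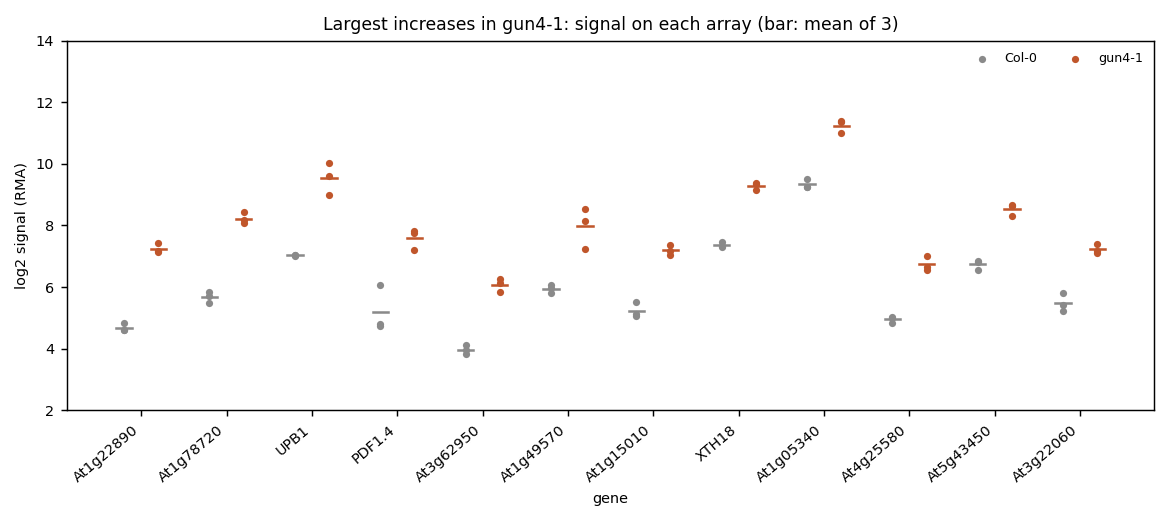
Log2 signal (vertical axis) on each of 3 Col-0 arrays (grey) and 3 gun4-1 arrays (orange) for the 12 genes with the largest increases among probe sets with 1 named gene, with the mean of each group as a bar. The choice of genes required separate groups. For PDF1.4 Col-0 replicate 2, at 6.07, lies nearest to the mutant arrays.

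Cell wall enzymes moved in both directions, and over all probe sets 6.90% were called. Of 19 measured expansins, proteins that loosen walls without cutting them, 3 were lower and 1 was higher, and the median log2 fold change was 0.09. The beta expansins fell furthest: EXPB3 gave 9.42, 9.46 and 9.19 in Col-0 and 6.88, 6.78 and 6.86 in gun4-1, a fold change of 0.175. EXPB1 gave 7.83, 7.84 and 7.71 against 5.12, 5.45 and 5.38 (0.180, adjusted p = 3.6e-07), so both were low on all mutant arrays. In the study's quantitative real-time PCR at 6 h the decrease of EXPB3 in gun4-1 was much smaller and not significant. It was significant at the study's later time point. The alpha expansin EXPA15 was at 0.497 of its wild-type level. EXLA1, of the expansin-like branch, rose 2.22-fold, and the other 15 members lay between -0.38 and 0.56 on the log2 scale.

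Xyloglucan transferases gave 1 lower and 2 higher genes of 10 (30%, against 6.90% over all probe sets), with a median of 0.36. XTH32 had signals of 10.96, 10.99 and 10.74 in Col-0 and 9.51, 9.26 and 9.16 in gun4-1 (0.333, log2 -1.59, standard error 0.11). EXGT-A3 rose 1.73-fold, which with XTH18 above makes up the higher genes. Among 15 GH9 glucanases 2 were lower and none higher: besides GH9B8, GH9C2 fell from 9.40, 9.56 and 9.23 to 7.54, 7.65 and 7.49, a fold change of 0.280 (adjusted p = 2.9e-06). The other GH9 genes ranged from -0.50 to 0.42. Of 6 pectin enzymes, which act on methyl esters or build the polymer, 2 pectin methylesterase genes were lower, PMEPCRF at 0.597 and PME61 at 0.493. PME61 lost its call without Col-0 replicate 2 (adjusted p = 0.0615), Col-0 replicate 3 (0.062), gun4-1 replicate 2 (0.0535) or gun4-1 replicate 3 (0.0798), which left 1 called gene in the list. None of 11 genes of the cellulose synthase family was called (limma; 7 had an unadjusted p under 0.05, and 4 by the t-test). EXO, a secreted protein that promotes growth in response to brassinosteroid, was outside these lists and rose 3.06-fold, from 10.19, 10.24 and 10.30 to 11.77, 11.97 and 11.83.

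Listed genes of cell division lay mostly below 0. Over all probe sets the median log2 fold change was 0.02, and 6.90% were called. TOPII, the topoisomerase that untangles replicated DNA, had 7.71, 7.89 and 7.99 in Col-0 and 6.42, 6.35 and 6.70 in gun4-1, a fold change of 0.385. 3xHMG-box2, a protein that binds mitotic chromosomes, had 8.47, 8.15 and 8.79 against 6.96, 7.05 and 7.31 (0.390, adjusted p = 0.00065). Both genes and PRL, the MCM7 subunit of the replication helicase (0.590), were chosen after their values were seen, since they belong to no list here. They therefore say nothing about the direction of the class. Of 11 measured genes of cyclins and cell division, 3 were lower, none was higher and 10 lay below 0, with a median of -0.24. The lowest value, -0.94 for the checkpoint gene BUBR1, was not called (adjusted p = 0.0909). The spindle checkpoint gene BUB3.1 gave 8.06, 8.20 and 8.33 against 7.33, 7.55 and 7.59, a fold change of 0.612. The other two, BUB3.2 (-0.70) and the Aurora kinase AUR1 (-0.64), depended on single arrays: leaving out Col-0 replicate 1 or 3 or gun4-1 replicate 1 brought BUB3.2 to adjusted p = 0.0587, 0.0693 or 0.0575. AUR1 came to 0.0575 or 0.0562 when Col-0 replicate 2 or 3 was dropped, and to 0.0915 or 0.0615 when gun4-1 replicate 1 or 2 was. With centred arrays AUR1 lay inside the fold limit. The list then held 1 called gene without Col-0 replicate 3 or gun4-1 replicate 1.

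All 5 core histone genes lay below 0 (median -0.53), and HTB1, a histone H2B gene, was called at 0.559 of its wild-type level, from 8.86, 8.91 and 8.94 to 8.29, 7.86 and 8.05. Of 12 subunits of the nuclear RNA polymerases, a list added after values were seen, 11 lay below 0, with a median of -0.42. Of these subunits 2 were called (16.7%, against 6.90% over all probe sets). NRPA1, the largest subunit of RNA polymerase I, which transcribes the large ribosomal RNAs, had signals of 7.03, 7.25 and 7.17 in Col-0 and 6.44, 6.48 and 6.45 in gun4-1 (0.619). NRPB9B (-0.66) was not called after quantile normalization or with centred arrays, which left 1 gene. Tubulins and actins did not move as a class: TUB1 was at 0.609, TUA1 rose 1.73-fold and ACT11 1.69-fold, and the other 6 of 9 probe sets lay between -0.25 and 0.02. Of 15 IQD proteins, which bind calmodulin and microtubules, 3 were lower and 11 lay below 0; IQD30 was at 0.600 of its wild-type level. With centred arrays IQD30 was the 1 that stayed called, since iqd21 and IQD23 (-0.61 and -0.62) then lay inside the fold limit. IQD23 also lost its call without Col-0 replicates 2 and 3 (adjusted p = 0.103 and 0.0874) and gun4-1 replicates 1 and 3 (0.0647 and 0.0724), and iqd21 lay inside the fold limit without Col-0 replicate 1 (-0.56) and gun4-1 replicate 2 (-0.54).

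Listed genes of amino acid catabolism and energy starvation were mostly on the higher side, whereas no listed autophagy gene was called. Of 12 measured genes of amino acid catabolism and energy starvation 6 rose (50%) and none fell, while over all probe sets 6.90% were called. The median log2 fold change of the 12 was 0.63, against 0.02 over all probe sets. For the 11 measured autophagy genes, also listed under starvation, the median was 0.04, and 5 had an unadjusted limma p under 0.05. PPDK, pyruvate orthophosphate dikinase, which helps turn stored carbon and amino acids into sugar or nitrogen carriers in germinating seedlings, had 9.24, 9.58 and 9.46 in Col-0 and 10.74, 10.82 and 10.63 in gun4-1 (2.47-fold, log2 1.31, standard error 0.10, adjusted p = 2.9e-05). ATL8, a RING-type ubiquitin ligase gene, rose 2.26-fold, from 8.03, 8.17 and 7.98 to 9.39, 9.33 and 8.98. MGL, methionine gamma-lyase, which breaks down methionine, rose 2.15-fold from 9.19, 9.42 and 9.07 to 10.30, 10.40 and 10.30.

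The other called members act in leucine breakdown and its link to respiration or in energy sensing. MCCA, the subunit of methylcrotonyl-CoA carboxylase that carries biotin, had 10.57, 10.57 and 10.68 against 11.47, 11.54 and 11.52, a 1.87-fold increase with an SD of at most 0.06 in either group. AKINBETA1, a regulatory subunit of the energy-sensing kinase SnRK1, rose 1.68-fold, and ETFQO, which passes electrons from these pathways to ubiquinone, 1.61-fold. MCCB and IVD, which act in the same leucine pathway, lay at 0.46 and 0.56 and were not called, and the lowest of the 12 was At4g16360 at -0.27. All 6 calls held when any single array was left out.

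Called reserve and sugar genes were few, and over all probe sets 6.90% were called. ICL, isocitrate lyase of the glyoxylate cycle that converts seed oil into sugar, had 11.16, 11.40 and 10.91 in Col-0 and 12.54, 12.75 and 12.86 in gun4-1 (2.95-fold, adjusted p = 0.00011). Of the other measured genes of oil mobilisation, the lipase gene SDP1 was at 0.51 and AIM1 at -0.10, neither called; with centred arrays 2 of the 3 were. SWEET2, a sugar carrier of the vacuole membrane, rose 2.34-fold, from 9.59, 9.14 and 9.29 to 10.61, 10.51 and 10.58, and it was the only one of 17 genes of sugar transport and sucrose use to be called (2 without Col-0 replicate 1). TMT1, which loads sugars into the vacuole, was chosen after its values were seen and was at 0.517 of its wild-type level. In starch metabolism 2 of 9 probe sets were lower: QQS, above, and DPE1 (-0.62, adjusted p = 0.049), an enzyme of starch breakdown. DPE1 did not pass when Col-0 replicate 1, 2 or 3 (adjusted p = 0.132, 0.071 or 0.249) or gun4-1 replicate 1 or 2 (0.192 or 0.197) was dropped, nor after quantile normalization (0.103) or with centred arrays (0.126).

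Auxin genes gave 2 lower and no higher calls of 16 (12.5%, against 6.90% over all probe sets). GH3.9, of the family that conjugates auxin to amino acids, had 5.95, 5.79 and 6.11 in Col-0 and 5.16, 4.39 and 4.82 in the mutant (0.447, adjusted p = 0.0021). IAA29, an auxin-induced repressor of the response, was at -1.02 and was not called without Col-0 replicates 1 and 3 (adjusted p = 0.0581 and 0.0691) or gun4-1 replicates 1 and 2 (0.0889 and 0.0737), each of which left 1 gene of the list. WAG2, a protein kinase that acts on auxin carriers and in hook opening, was in no list and gave 7.43, 7.40 and 7.53 against 5.85, 5.93 and 4.97 (0.273, adjusted p = 0.00034); the mutant value of replicate 3 was about 0.9 below the others. Of 12 genes of abscisic acid and dehydration, 2 were higher and 10 lay above 0, with a median of 0.49. COR27, a cold- and light-regulated gene tied to the clock, rose 2.37-fold, from 4.78, 5.20 and 4.82 to 5.86, 6.50 and 6.19. LTI30, a dehydrin, was at 0.88, and without Col-0 replicates 1, 2 and 3 its adjusted p was 0.0675, 0.0719 and 0.0594, which left COR27. Further members at 0.76 to 1.09, LEA4-5, LEA18, LEA and AtLEA4-1, all genes of late embryogenesis abundant proteins, were not called. HIS1-3, a linker histone induced by drought, was not listed and rose 2.69-fold, from 5.02, 5.27 and 4.83 to 6.14, 6.71 and 6.55.

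In secondary metabolism and defence the calls were split, and over all probe sets 6.90% were called. DFR, dihydroflavonol reductase of the anthocyanin branch, gave 5.99, 6.05 and 5.40 in Col-0 and 4.58, 4.31 and 4.26 in gun4-1 (0.372, adjusted p = 0.0014). UGT78D1, which adds rhamnose to flavonols, gave 8.97, 8.86 and 8.85 against 7.33, 7.28 and 7.20 (0.325, adjusted p = 6.7e-07). The whole class of UDP-glycosyltransferases, enzymes that add sugars to small molecules, had 3 lower and 3 higher of 51 (11.8%) and a median of 0.10. UGT71C1 was at 0.495, while UGT73B1 rose 2.22-fold and UGT87A2 1.71-fold. Of 18 defensin, pathogenesis-related and thionin genes, PDF2.5 was lower (6.44, 6.42 and 6.42 against 5.01, 4.68 and 4.65, a fold change of 0.319) and PDF1.4 and PDF1.2b were higher. PDF1.2b, at 0.82, did not pass when Col-0 replicate 1 (adjusted p = 0.162) or 3 (0.148) or any of gun4-1 replicates 1, 2 and 3 (0.152, 0.0704 and 0.173) was left out. The probe set of PDF1.2b is also of a type that can match related transcripts. PRXR1, of the class III peroxidases, fell at a high signal from 12.57, 12.82 and 12.62 to 11.45, 11.69 and 11.51 (0.458). It was the only call among the 7 in its list, and peroxidase genes without a matching symbol are not in that list. GSTU23, a tau class glutathione transferase, was at 0.292 of its wild-type level.

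Genes of the chloroplast and its pigments follow, and over all probe sets 6.90% were called. None of 13 measured genes of tetrapyrrole synthesis was called (limma; 2 had an unadjusted p under 0.05, 3 by the t-test), and the median was 0.02. PORB, a light-dependent protochlorophyllide oxidoreductase, had 11.56, 11.45 and 11.42 in Col-0 and 11.14, 10.89 and 11.23 in gun4-1; the groups did not overlap, but the difference of -0.39 did not pass (adjusted p = 0.37). HEMA2, a glutamyl-tRNA reductase gene, was highest at 0.53 (adjusted p = 0.032), within the fold limit. It was called after quantile normalization (0.59), with centred arrays (0.62) and without gun4-1 replicate 1 (0.64), so that the list then held 1 call. The other genes, with values near 0 whose sign for HEME1, HEME2, CHLI2, NOL and SIRB changed with the setting, were GSA1 of ALA synthesis, HEMB1, hemb2, HEME1, HEME2, hemf2, CHLI2 of Mg chelatase, CHLM, At1g74470, NOL and SIRB, and lay between -0.16 and 0.19.

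Of 8 genes of light-harvesting and photosystem proteins only LHCB4.3 (12.5% of the list) was called, at 0.633 of its wild-type level, from 10.07, 9.97 and 9.97 to 9.43, 9.25 and 9.36; with centred arrays it lay inside the fold limit. Its relatives LHCB4.1 and LHCB4.2 were at -0.11 and -0.13. LHCB1.2, which the study found not significantly changed on these arrays, is not named in the annotation used. Among 69 probe sets of plastid-encoded genes 1 was called (1.45%), psbA, which encodes the D1 protein of photosystem II. It had 9.51, 9.19 and 9.25 in Col-0 and 6.87, 6.76 and 6.63 in gun4-1 (0.169, log2 -2.56, standard error 0.10, adjusted p = 1.3e-07). All other plastid probe sets lay within the fold limits, and the median of the class was 0.05. Of 23 mitochondrion-encoded probe sets 20 lay above 0 (median 0.26) and 2 were called. The cytochrome oxidase gene cox2 rose 2.03-fold, from 4.93, 4.78 and 4.52 to 5.67, 5.67 and 5.95, and nad9, of complex I, was at 0.60. The mean signals of nad9 were dim in both groups, 3.81 in Col-0 and 4.42 in gun4-1. Dropping Col-0 replicate 1 or 3 brought nad9 to adjusted p = 0.0543 or 0.0818, and dropping gun4-1 replicate 1 to a log2 fold change of 0.49. The list held 1 call without Col-0 replicate 3 and 4 with centred arrays. The study prepared the RNA with a 3′ IVT labelling kit. How well this captures plastid and mitochondrial transcripts was not tested here, so psbA, cox2 and nad9 are described as array signals only.

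**Figure D4:**
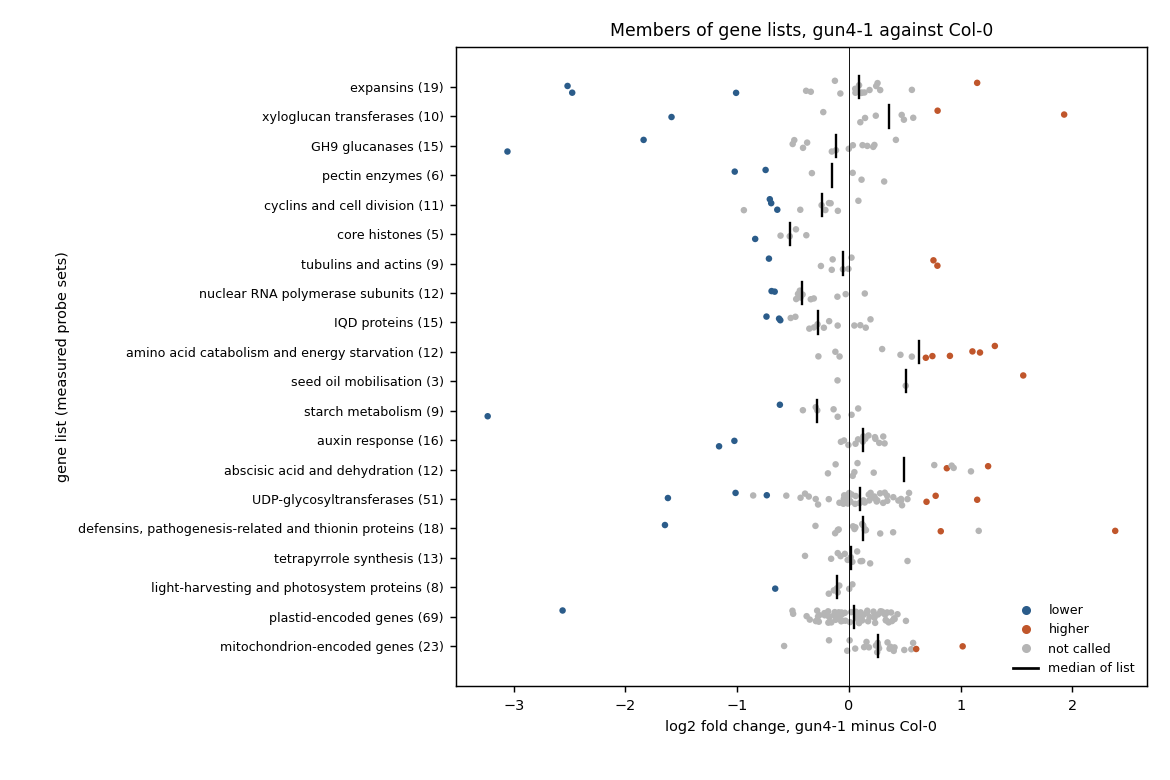
Log2 fold change (gun4-1 minus Col-0, horizontal axis) of every measured member of gene lists (vertical axis, with the number of probe sets). Blue members were called lower, orange ones higher and grey ones neither, and the black line is the median of the list. Medians run from -0.53 for core histones to 0.63 for amino acid catabolism and energy starvation.

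Set directly against GAB-treated wild-type, gun4-1 differed in 864 probe sets, 3.80% of those tested, 564 lower and 300 higher in the mutant. Of the 1014 probe sets lower in gun4-1 than in Col-0, 405 (39.9%) were also called lower directly against GAB. Of the 556 higher ones 203 (36.5%) were called higher directly. GAB against Col-0 was called in the same direction for 117 of the lower and 94 of the higher ones. Both conditions were compared with the same Col-0 arrays, so the direct comparison carries the test. QQS had GAB signals of 8.78, 8.84 and 8.80, above all Col-0 arrays, and gun4-1 was at 0.0785 of the GAB level (adjusted p = 3.1e-09 from limma). At2g16005 with GAB was at 9.56, 8.92 and 9.02, and the direct log2 difference was -3.57. At5g38020, at 7.84, 8.40 and 8.59 with GAB, differed by -3.53. At4g38080 went opposite ways: GAB gave 8.11, 7.37 and 8.13, Col-0 5.08, 5.69 and 5.45, and gun4-1 4.62, 4.21 and 4.09. The call of At4g38080 in gun4-1 against Col-0 (-1.10) was lost without Col-0 replicates 2 and 3 (adjusted p = 0.184 and 0.132) and without gun4-1 replicates 2 and 3 (0.115 and 0.158).

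Among genes higher in the mutant, UPB1 had GAB signals of 7.24, 7.46 and 7.44 and was 4.45-fold higher in gun4-1 than with GAB. At1g78720, At1g15010 and At3g05950 were 4.61-fold, 4.55-fold and 4.24-fold higher than with GAB. For psbA, 8.98, 8.94 and 8.94 with GAB, the direct log2 difference was -2.20 (adjusted p = 8.2e-07). EXPB1 and EXPB3 were called lower with GAB too (log2 -1.28 and -1.36 against Col-0), and lower again in gun4-1 directly against GAB. Some changes were of like size in both conditions and did not pass the direct test. The increase of cox2 was called with GAB too (log2 1.03), and the direct difference was -0.01 (95% interval -0.27 to 0.25). NRPA1, 6.48, 6.14 and 6.23 with GAB, differed by 0.17 (95% interval -0.04 to 0.38). PRL differed by -0.05 (-0.26 to 0.16) and At5g43450 by 0.30 (0.05 to 0.54, adjusted p = 1). AER, a reductase of reactive carbonyls, was higher with GAB, 9.13, 9.20 and 8.89, than in gun4-1, 8.57, 8.57 and 8.49; the difference of -0.53 had an adjusted p of 0.019 and was within the fold limit.

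**Figure D5:**
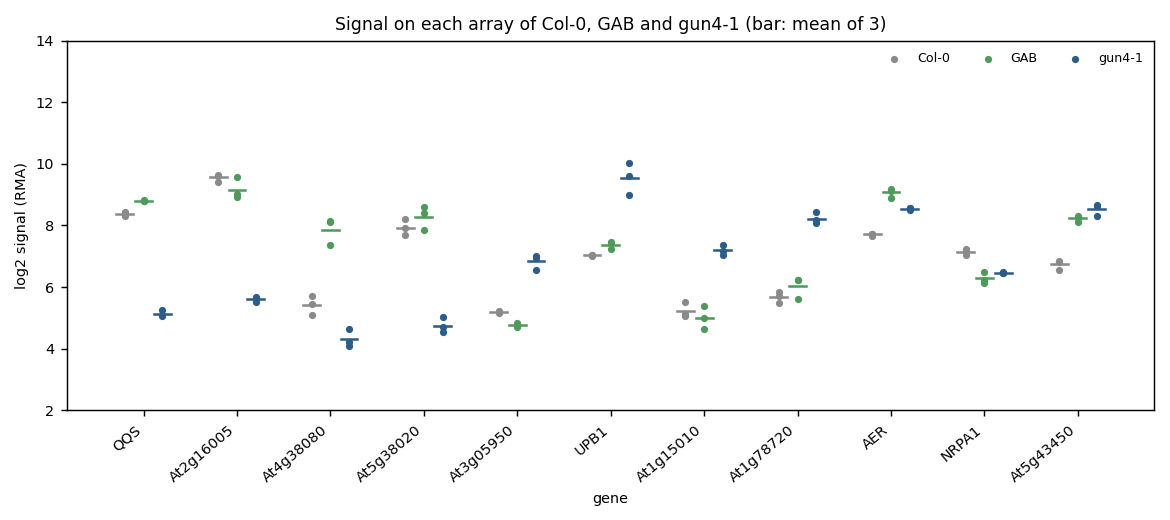
Log2 signal (vertical axis) on each of 3 arrays of Col-0 (grey), Col-0 with GAB (green) and gun4-1 (blue), with the mean of each group as a bar. The first 8 genes were drawn equally from those lower and those higher in gun4-1. Within each direction they have the largest differences between gun4-1 and GAB among genes called in the same direction against Col-0. AER, NRPA1 and At5g43450 lie on the same side of Col-0 in gun4-1 and with GAB.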

How the data were processed

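The authors deposited log2 values, summarised by robust multi-array average (RMA) for each probe set with Affymetrix Expression Console, per the submitters' processing notes. The groups were compared in limma 3.58.1 (R 4.3.3) with 1 fit of all 9 arrays (6 residual degrees of freedom, 5.91 from the prior), and the Benjamini-Yekutieli adjustment and fold limits of the study's methods. The number of arrays limits the precision. The methods call all experiments independently repeated, without naming for the arrays the step that was repeated; p-values measure the spread between these arrays. Exact permutation of 3 against 3 arrays cannot give a p below 0.1, so none is given. Platform annotation and RefSeq name 1 gene for 13513 probe sets, several for 503 and none for 8730. The comparison, its members and the gene lists were chosen with earlier results of these arrays known; 65 lists were drawn up, 52 had at least 3 measured probe sets, and 11 of the 65 were added after values were seen. Genes named are the 12 largest changes per direction among called probe sets with separate groups, up to 4 called members per list (where fewer than 2 were called, the brightest others), the 6 brightest called genes, all tetrapyrrole genes and the 4 largest direct differences from GAB per direction; further genes with symbols were chosen after their values were seen. Calls were tested on simulated data. Alternatives were the adjustment, fold limit, scaling, filters, variance models, array weights, replicate block, t-test and each array left out. Promoter motifs and sequences were not analysed here. The result of 1 list is not reported here.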

Additional observations from a re-analysis of the deposited data

How the results depend on the processing

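Calls numbered 2381 without a fold limit (959 higher) and 512 with a limit of 2-fold (345 lower, 167 higher). Equal array medians gave 859 higher calls. Student's t-test of the study's statistical note left 3 calls after the Benjamini-Yekutieli adjustment (1 lower, 2 higher), 1004 after Benjamini-Hochberg and 1687 at an unadjusted p of 0.05, all with the fold limit. Probe sets with 1 gene alone, chosen after seeing the data, gave 807 calls (526 lower, 281 higher). All other settings kept the 3 counts within 1.5 times; with 1 array left out the calls numbered 1307 to 1536 (502 to 561 higher, 805 to 1000 lower). Deviations from the group mean correlated between Col-0 and gun4-1 arrays of the same replicate number with r = 0.148, 0.132 and -0.0666. Arrays of different numbers were not compared in this way, so whether the numbers pair the arrays cannot be told. With the replicate number as a block 1643 were called (1062 lower, 581 higher), and of the genes named CYP71B37 lost its call (adjusted p = 0.0532 from limma). Of 165 named and called genes 116 kept the call with any array left out, and none of the 165 changed direction in any setting; 14 named genes near 0 that were not called did.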

Other observations

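Further lists not described above held scattered calls, some at shares near the 6.90% over all probe sets. These were 9.09% of cytochrome P450 genes and of beta-glucosidases and 6.9% of serine carboxypeptidase-like proteins. Tetraspanins and TRM proteins had 6.67% each. Of 10 measured subtilases, secreted proteases, 3 were lower and none higher, among them SBT4.12 at 0.351 of its Col-0 level. Cytochrome P450 genes had 2 lower of 22, CYP71B35 (-0.60) and CYP71B37 (-0.83), and neither after quantile normalization or with equal array medians. CYP71B37 lost its call whichever of the 6 arrays was left out (adjusted p = 0.0916 to 0.192), and CYP71B35 without Col-0 replicate 1 (-0.54), Col-0 replicate 2 (adjusted p = 0.0653) or gun4-1 replicate 1 (-0.48). Beta-glucosidases had 2 lower of 22, BGLU15 (-0.73) and BGLU47 (-0.61). BGLU15 kept its call only without gun4-1 replicate 2; with any other array left out its adjusted p was 0.0802 to 0.151. BGLU47 lost its call without Col-0 replicate 3 (-0.50) or gun4-1 replicate 2 (-0.53) and with equal array medians (-0.51). Its mean signals were dim, 4.48 in Col-0 and 3.88 in gun4-1. The list held 0 calls without Col-0 replicate 3. Serine carboxypeptidase-like proteins had 2 lower of 29, scpl35 and scpl50 (both -0.67). Both lay inside the fold limit with equal array medians (-0.57), which left 0 calls, and scpl35 did without gun4-1 replicate 3; 3 members were called after quantile normalization. Flavonoid synthesis had 1 lower of 6, DFR, and 2 without gun4-1 replicate 1. Tetraspanins (1 of 15, TET2 at -0.76) and TRM proteins (1 of 15, TRM24 at -0.77) each had 2 without Col-0 replicate 3. TRM24 had dim mean signals, 4.81 in Col-0 and 4.04 in gun4-1. The actin-binding NET proteins had 1 lower of 10, NET1A (-0.83).

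On the higher side, calmodulin-like proteins and glutamate receptor channels had 1 of 16, CML41 (0.71), with 0 called without Col-0 replicate 2 or gun4-1 replicate 1 and 2 without gun4-1 replicate 3. Over all probe sets 2.44% were called higher. The bZIP factors had 1 of 22, bZIP48 (0.59), which was inside the fold limit without Col-0 replicate 2, gun4-1 replicate 2 or gun4-1 replicate 3 and after quantile normalization (0.51). Its mean signals were dim, 3.52 in Col-0 and 4.11 in gun4-1. The bHLH factors had 1 of 11, UPB1, and 2 without any 1 of the Col-0 replicates or gun4-1 replicate 1. WRKY22 (0.77) was the call of 7 WRKY factors and ALDH6B2 (0.71) that of 8 aldehyde dehydrogenases. Glutathione transferases had 1 lower and 1 higher of 14, the higher being GSTU16 (0.62), which was inside the fold limit without Col-0 replicate 1 (0.57). Ubiquitin-conjugating enzymes and ubiquitin proteases had 2 lower and 1 higher of 25. The lists of subtilases, beta-glucosidases, carboxypeptidases, tetraspanins, TRM, NET, bZIP, trichome birefringence-like and ubiquitin genes were added after values were seen. JAL22, a jacalin-type lectin, fell from 12.18, 12.34 and 12.30 to 10.87, 10.60 and 10.88. JRG21 rose 2.85-fold. Of the 52 lists 15 had no called member; they held 118 probe sets, of which 46 had an unadjusted p under 0.05 in limma and 33 by the t-test (0 after its Benjamini-Yekutieli adjustment). With 1 array left out, 1 member was called in autophagy (without Col-0 replicate 1 or gun4-1 replicate 2), metal supply and trichome birefringence-like proteins (each without gun4-1 replicate 2) and nutrient transport (without gun4-1 replicate 1 or 2). They cover cellulose synthesis, nutrient and metal transport, gibberellin, cytokinin, jasmonate, glucosinolates, wax, receptor-like kinases, homeodomain factors, heat shock, autophagy, chromatin remodelling, trichome birefringence-like proteins and tetrapyrrole synthesis. Members called in both directions occurred in 7 lists, only lower members in 19 and only higher ones in 11.

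Called genes lay on all 5 nuclear chromosomes, with 5.09% (chromosome 2) to 6.77% (chromosome 3) of named probe sets called. Of 5849 pairs of neighbouring protein-coding genes with both measured, by the order in RefSeq TAIR10.1, 22 were lower together, 13 were higher together and 16 moved in opposite directions. Among all probe sets with 1 gene 6.03% were called. How many such pairs that share alone would give was not worked out, so the pairs below are examples only. The pair with the deepest decrease was At5g38020 and At5g38030. At3g28310 and At3g28320 were at -1.22 and -2.27, and At4g11190 and At4g11210 at -2.46 and -1.14. At1g65500 and At1g65510, at 0.83 and 1.58, were higher together. Whether probe sets of similar neighbours share signal was not tested.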
